A study of Mus musculus with 2 samples.

Results

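miR-126-3p and miR-126-5p are the mature arms cut from one microRNA (miRNA) hairpin, and both were measured in knee joint cartilage of a control and a Col2a1Tsc1KO mouse sample. Rows were taken by name, as the non-control spots labelled mmu-miR-126-3p or mmu-miR-126-5p, which gave 2 of the 1247 mouse miRNAs on the array, 4 of 3101 probes and 80 of 49880 spots on each array. Both samples came from male mice aged 8 weeks. The control is labelled wildtype. The other group carries a deletion of Tsc1, a brake on the growth kinase complex mTORC1, described as specific to Col2a1, the gene of the main cartilage collagen. The driver of the deletion and the number of mice behind each sample are not given in the sources used here. There was 1 array per group, so no difference below has a replicate check, no p-value was computed, and errors are standard errors (SE) over spots of an array, which hold technical noise alone. The study asked which miRNAs follow mTORC1 activation in osteoarthritis.

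miR-126 lies in an intron of Egfl7, a gene of blood vessel cells that encodes a secreted protein, and is best known as a miRNA of endothelium. miR-126-3p lowers Spred1 and Pik3r2, which restrain signalling downstream of the vessel growth factor VEGF, and miR-126-5p acts on Dlk1 during endothelial repair. Articular cartilage has no vessels of its own, whereas the bone and synovium beside it are vascular. In bulk RNA, fewer cells of a type and less of a miRNA per cell cannot be told apart.

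The Mir126a hairpin, which gives both arms, is shown first because the arms and the array's probes can be read from it. In RefSeq (GRCm38.p6) it spans chr2:26591357-26591429 on the plus strand, within the span of Egfl7 at chr2:26581083-26592682. Capitals mark the bases complementary to the longest probe of each arm, first miR-126-5p and then miR-126-3p.
Mir126a hairpin: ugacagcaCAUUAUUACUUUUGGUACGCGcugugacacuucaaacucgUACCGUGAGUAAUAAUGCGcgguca
Of the 2 arms, miR-126-3p matched a mature sequence in RefSeq, at chr2:26591402-26591423. Its seed, bases 2 to 8, is in capitals below and was found in no other mature mouse miRNA of that table.
miR-126-3p: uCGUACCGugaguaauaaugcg
Each arm had 2 probes that differ by 1 base in length. They are given 5′ to 3′, because the results differ between the probes of miR-126-5p.
miR-126-3p, 18-base probe: cgcattattactcacggt
miR-126-3p, 19-base probe: cgcattattactcacggta
miR-126-5p, 20-base probe: cgcgtaccaaaagtaataat
miR-126-5p, 21-base probe: cgcgtaccaaaagtaataatg
By a match to the hairpin, the miR-126-3p probes cover chr2:26591406-26591423 and chr2:26591405-26591423, and the miR-126-5p probes cover chr2:26591366-26591385 and chr2:26591365-26591385. A second hairpin, Mir126b, is annotated on the opposite strand at chr2:26591363-26591420, and no row of the array carries its name. The 21-base probe has the letters of the start of miR-126b-3p (T for U), and a probe captures the complement of its letters.

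Both arms were detected on both arrays, with a bright signal for miR-126-3p and a dim one for miR-126-5p. On the 18-base probe of miR-126-3p the processed intensity, which is background-subtracted and not yet scaled between arrays, ran from 1100 through a median of 1150 to 1220 over 20 usable control spots. On the Col2a1Tsc1KO array it ran from 1750 through 1920 to 2080 over 19 spots. Every Col2a1Tsc1KO spot of this probe was thus above every control spot, a separation in either direction that 66.0% of the 476 probes detected on both arrays shared. The 19-base probe gave 1400, 1455 and 1500 on the control array. It gave 2430, 2510 and 2620 on the Col2a1Tsc1KO array, again with no overlap. Spots of one probe varied little, with an SD on the log2 scale between 0.03 and 0.06 on these probes, against a median SD of 0.09 for control and 0.10 for Col2a1Tsc1KO over those 476 probes.

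The 21-base probe of miR-126-5p ran from 49.1 through a median of 53.4 to 63.7 over 18 usable control spots and from 65.2 through 79.7 to 92.5 over 17 Col2a1Tsc1KO spots. All 20 of its spots were marked well above background on each array. The 20-base probe gave 6.10, 11.5 and 16.1 on the control array and 5.91, 12.5 and 23.4 on the Col2a1Tsc1KO array. None of its 20 control spots and 1 of its 20 Col2a1Tsc1KO spots was well above background. Negative-control spots, which hold no miRNA probe, had a median of 4.96 for control and 4.89 for Col2a1Tsc1KO and 95th percentiles of 11.4 and 10.9. The measurement of miR-126-5p therefore rests on the 21-base probe alone, and no fold is given for the other.

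**Figure D1:**
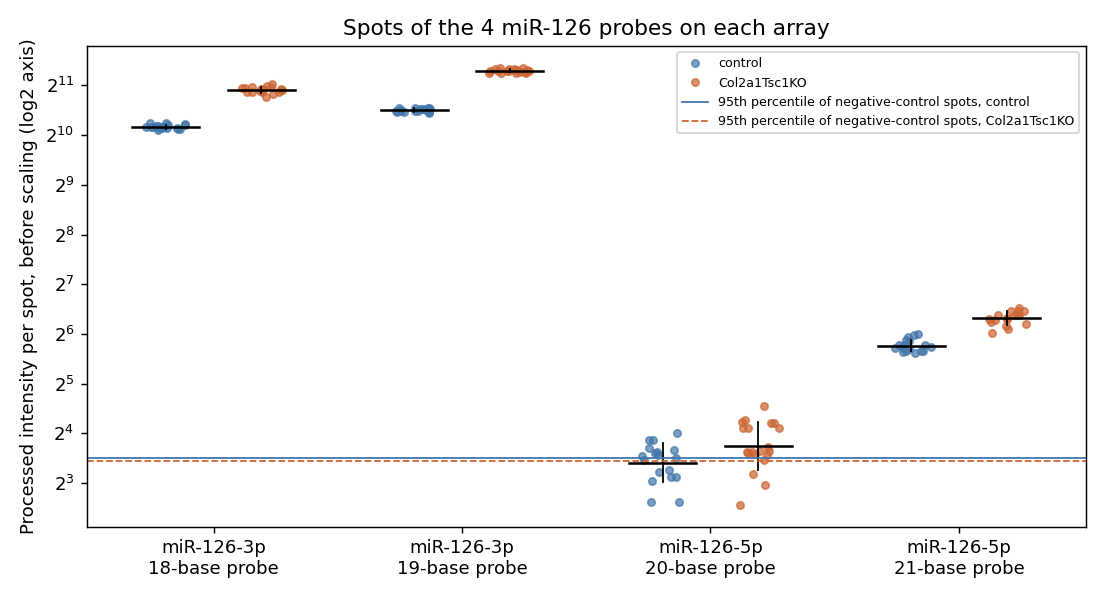
Processed intensity of each usable spot, before scaling and on a log2 axis, for the 4 miR-126 probes on the control (blue) and Col2a1Tsc1KO (orange) arrays; black bars are the mean and SD of log2 values over spots, and horizontal lines are the 95th percentile of negative-control spots. The miR-126-3p spots lie between 1100 and 2620, the 21-base probe of miR-126-5p between 49.1 and 92.5, and the 20-base probe around the negative-control line.

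After scaling, both arms stood slightly higher on the Col2a1Tsc1KO array and neither reached 2-fold. The sign of miR-126-3p flips under quantile normalization. That of miR-126-5p flips when its dim probe is set to a floor, which is lower on the Col2a1Tsc1KO array. Scaling divided each array by its 75th percentile over the probes detected on each, an intensity of 353.6 for control and 470.0 for Col2a1Tsc1KO, a ratio of 1.33. Before it, the miR-126-3p probes differed by 1.67-fold and 1.73-fold and the 21-base probe of miR-126-5p by 1.46-fold. The scaled log2 level of miR-126-3p was 1.87 for control and 2.23 for Col2a1Tsc1KO, a difference of 0.35 ± 0.01 (SE over spots), or 1.28-fold. For miR-126-5p the levels were -2.70 and -2.56, a difference of 0.14 ± 0.04, or 1.1-fold. The probes of miR-126-3p gave 0.33 ± 0.02 and 0.38 ± 0.01. Both members being short of 2-fold is the common case in this comparison: 33.1% of the 257 miRNAs measured on both arrays passed it, 15.6% higher and 17.5% lower. With no scaling those counts moved from 40 higher and 45 lower to 59 higher and 13 lower.

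Spots at the same place on both arrays could be set side by side. For each miR-126-3p probe, all 19 usable pairs were higher on the Col2a1Tsc1KO array after scaling, with log2 differences from 0.25 to 0.43 on the 18-base and from 0.29 to 0.44 on the 19-base probe. For the 21-base probe of miR-126-5p, 13 of 16 pairs were higher, from -0.19 to 0.29. After scaling, the spots of both miR-126-3p probes still did not overlap between the arrays, while those of miR-126-5p did. Such separation was usual, since 69.3% of those 476 probes had scaled spots that did not overlap, in either direction. The spot pairs describe these 2 arrays and are not replicates of the genotype.

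Among all 257 miRNAs, miR-126-3p ranked 73rd and miR-126-5p 90th from the highest difference, so that 71.6% and 65.0% of the miRNAs stood below them. Over the alternatives these shares ran from 40.5% to 78.1% for miR-126-3p and from 57.8% to 72.7% for miR-126-5p, with miR-126-3p at 44.7% under quantile normalization. The differences of all miRNAs ran from -1.81 to 2.36, with a median of -0.22 and the middle 50% between -0.76 and 0.49, which holds both arms. A difference above 0 was found for 40.9% of the miRNAs. Relative to the median miRNA the arms were 0.57 and 0.35 higher, a distance that no scaling by a constant can change. The miRNAs with the most similar differences to miR-126-3p, of 2 arrays, were miR-872-5p at 0.36 ± 0.07, miR-5100 at 0.39 ± 0.02 and miR-322-5p at 0.42 ± 0.02 above it, and miR-350-3p at 0.34 ± 0.03, miR-2137 at 0.33 ± 0.02 and miR-3473b at 0.32 ± 0.01 below it. Around miR-126-5p lay miR-10a-5p at 0.15 ± 0.02, miR-378b at 0.15 ± 0.04, miR-155-5p at 0.15 ± 0.06, miR-212-3p at 0.13 ± 0.08, miR-361-5p at 0.12 ± 0.04 and miR-3081-5p at 0.12 ± 0.04. Likeness here means closeness of 1 log2 difference, and 36 miRNAs lay within 0.25 of miR-126-3p. Of these neighbours, miR-872-5p, miR-5100, miR-378b and miR-155-5p changed sign in 1 of 14 alternatives each and miR-3473b in 3.

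**Figure D2:**
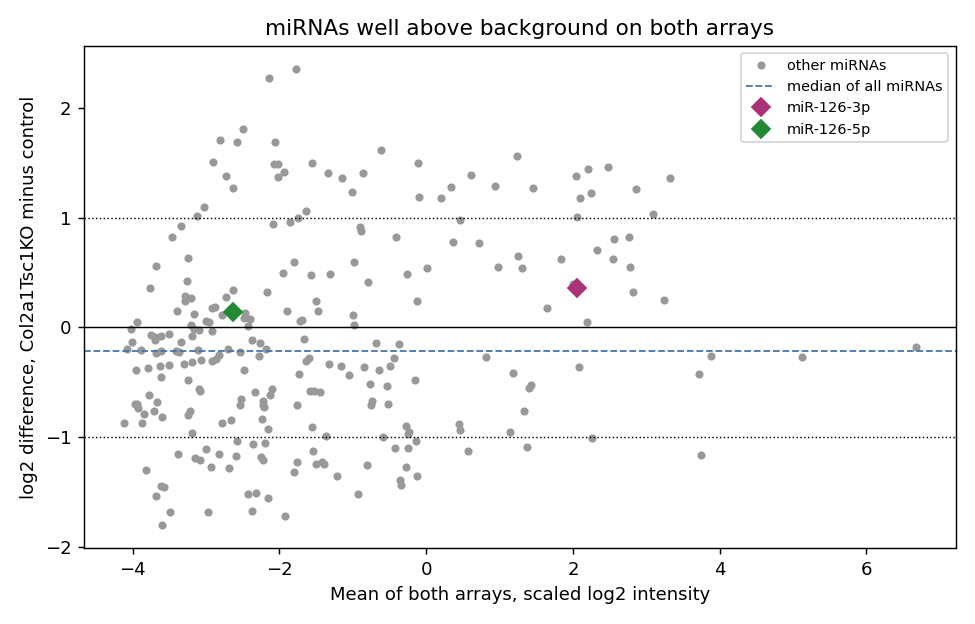
Log2 difference (Col2a1Tsc1KO minus control) against the mean scaled log2 intensity of both arrays for the 257 miRNAs well above background on both; diamonds are the miR-126 arms, error bars are SE over spots and smaller than the symbols, dotted lines are 2-fold, and the dashed line is the median of -0.22. Both arms lie between 0 and the upper 2-fold line, miR-126-3p at 0.35 among the brighter and miR-126-5p at 0.14 among the dimmer miRNAs.

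The direction of miR-126-3p depended on how the arrays were scaled. Quantile normalization, which forces both arrays to 1 distribution, gave -0.13 for miR-126-3p and 0.34 for miR-126-5p, and with normexp background correction before it the values were -0.13 and 0.16. Relative to the median of all miRNAs under quantile normalization, miR-126-3p stood at -0.11 and miR-126-5p at 0.36. In the authors' deposited table miR-126-3p has a log2 value of 10.38 in both columns, a difference of 0, and holds rank 33 in each. That table shares 337 distinct values between its columns and its steps are not known. The exact 0 is therefore not read as a measured lack of change. The same deposited table gives miR-126-5p 4.58 in the control and 5.11 in Col2a1Tsc1KO, a difference of 0.53. Scaled to the 4 spike-ins, RNAs added in the assay whose log2 signals differed by -0.05 to 0.18 between the arrays, miR-126-3p stood at 0.72 and miR-126-5p at 0.50. For miR-126-5p the difference was above 0 in 15 of 16 alternatives and for miR-126-3p in 13 of 16, and neither arm reached 2-fold in any of them. The alternatives are not independent. Asking for every spot well above background returned both main values unchanged, and several others add a constant to every difference. These counts thus describe the settings and do not support a direction.

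**Figure D3:**
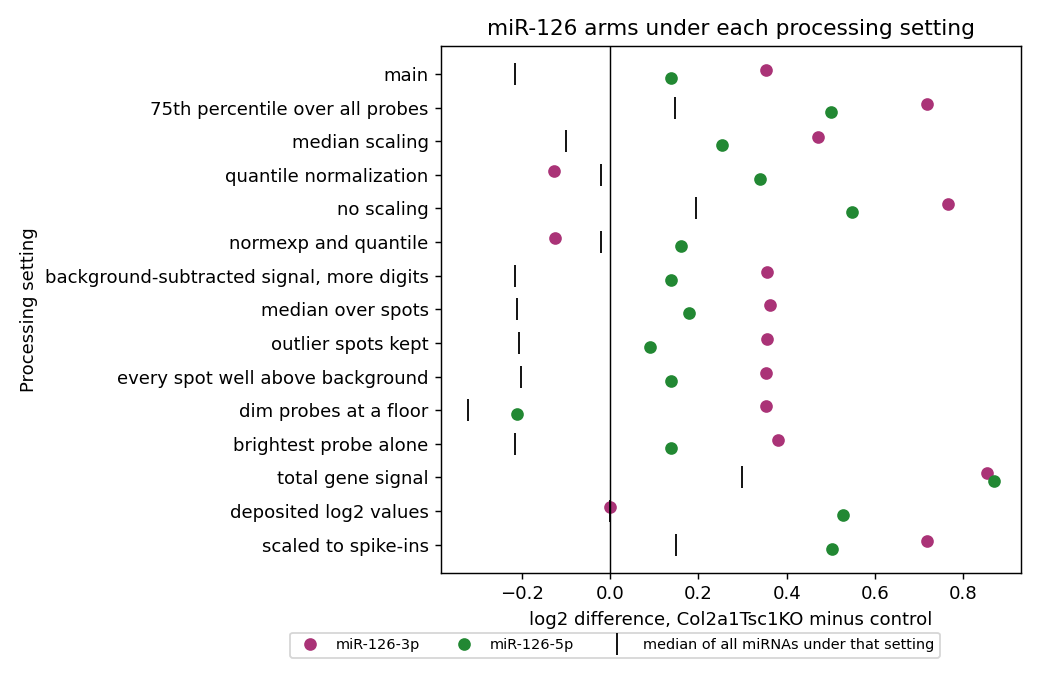
Log2 difference (Col2a1Tsc1KO minus control) of miR-126-3p and miR-126-5p under the main setting and 14 alternatives that apply to all miRNAs, 1 row each; the black tick is the median of all miRNAs under that setting. miR-126-3p runs from -0.13 to 0.85 and miR-126-5p from -0.21 to 0.87.

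The arms come from one precursor, and at the main setting their differences were closer than those of most hairpins measured. miR-126-3p exceeded miR-126-5p by a gap of 0.22 ± 0.04 in log2 difference, which scaling by a constant leaves as it is. Quantile normalization turned the gap to -0.47, with normexp it was -0.29, and in the deposited table -0.53. Of 422 miRNA names with both arms on the array, 19 had both arms measured on each array. Arms were paired by name, and apart from miR-126 it was not checked that a pair comes from a single precursor. Among these the main-setting gap of miR-126 was the fifth smallest in absolute size. The gap exceeded 2 SE in 17 of the 19, miR-126 among them. The median absolute gap was 0.38, with quartiles of 0.23 and 0.96. The smallest were those of the mesenchymal miR-199a, at -0.04 ± 0.03, and miR-340, at -0.15 ± 0.10. The largest were those of miR-195a, at -2.43 ± 0.06, and miR-125a, at -2.29 ± 0.07, whose arms lay on opposite sides of 0. The 3p and 5p differences had the same sign in 13 of the 19 hairpins, miR-126 among them at the main setting.

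**Figure D4:**
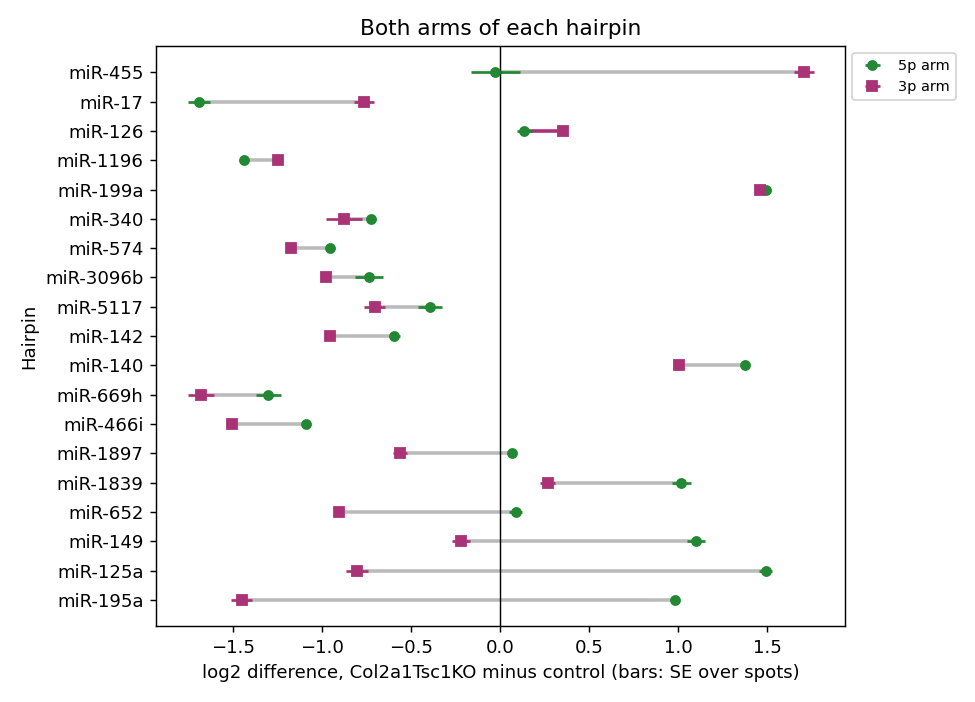
Log2 difference (Col2a1Tsc1KO minus control) of the 5p (circles) and 3p (squares) arms of the 19 hairpins, ordered by the 3p minus 5p gap. Arms were paired by name, and both were well above background on both arrays. Error bars are SE over spots and the miR-126 pair is joined in purple. The miR-126 arms lie 0.22 apart on the same side of 0, while those of miR-195a lie 2.43 apart across it.

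miRNAs linked to endothelial cells and vessel growth lay on both sides of 0, with more above it than below. The list was chosen with earlier results of these data known, so its counts describe it and support nothing. Of 34 entries 33 had a row and 29 were measured on both arrays: 14 were higher by at least 2-fold in Col2a1Tsc1KO, 5 at least 2-fold lower and 10 between. Of all 257 miRNAs, 15.6% were higher and 17.5% lower by that threshold. A difference above 0 was found for 21 of the 29 and for 40.9% of all 257. The entry without a row was miR-378-3p, looked up by that name alone. A row named miR-378a-3p stood at -0.12 ± 0.02 and is not in these counts. The list's median was 0.91, against -0.22 for all miRNAs, and it stayed between 0.68 and 1.45 over 14 alternatives. The counts ranged more widely, from 6 to 18 higher and from 1 to 5 lower, at 6 and 1 after normexp with quantile normalization. The 3 highest were miR-34a-5p, which is induced by p53 and linked to endothelial ageing, at 2.28 ± 0.04, miR-218-5p, which acts on the Robo receptors of vessel guidance, at 1.80 ± 0.04, and miR-23b-3p at 1.56 ± 0.01. The 3 lowest were miR-18a-5p at -1.72 ± 0.03, miR-17-5p at -1.69 ± 0.06 and miR-19a-3p at -1.13 ± 0.03, all made from the miR-17~92 cluster, and miR-17-5p turns positive with the total gene signal. The other entries at least 2-fold lower, miR-20a-5p at -1.13 ± 0.01 and miR-92a-3p at -1.03 ± 0.02, belong to the same cluster. Several entries share a cluster, so they are not independent. The miR-221-3p and miR-222-3p pair, which acts on the receptor Kit in endothelium, stood at -0.28 ± 0.02 and -0.23 ± 0.04 and turns positive with no scaling, among other alternatives. Both miR-126 arms thus lay below the list's median. Whether they differ from it was not tested.

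Markers of other cell types that the peeled tissue could hold also differed between the arrays, and their part in the miR-126 values was not tested. The level of a list is given as the sum of its members' scaled intensities, in multiples of the array's 75th percentile. Lists differ in their number of members, and probes of the same miRNA can differ in brightness. The sums are therefore to be compared between arrays within a list, not between lists as amounts of cell types. For the miR-126 arms it was 3.81 for control and 4.85 for Col2a1Tsc1KO. Of the 5 red cell entries 2 were measured on both arrays, with sums of 5.74 and 8.52: miR-451a, which matures through Argonaute 2, at 0.55 ± 0.01, and miR-144-3p at 1.51 ± 0.04. miR-486-5p had no row of that name, and rows under other names were not searched, so the red cell list is not complete. Most of both sums was miR-451a, at scaled log2 levels of 2.50 and 3.05, against -3.66 and -2.15 for miR-144-3p. Quantile normalization turns miR-451a negative. Of the 7 leukocyte entries 5 were measured, with sums of 23.7 for control and 11.02 for Col2a1Tsc1KO. Most of each sum was miR-223-3p, at scaled log2 levels of 4.32 and 3.16, followed by miR-142-3p at 1.62 and 0.67. The myeloid miR-223-3p stood at -1.17 ± 0.01, miR-142-3p and miR-142-5p at -0.95 ± 0.03 and -0.59 ± 0.03, miR-150-5p of mature lymphocytes at 0.64 ± 0.06 and miR-155-5p at 0.15 ± 0.06.

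The vessel wall miRNA miR-143-3p, of smooth muscle and pericytes, stood at 1.37 ± 0.02, with scaled intensities of 0.153 and 0.395. Its partner miR-145a-5p was detected in Col2a1Tsc1KO only, and miR-143-5p and miR-145a-3p on neither. Of the 6 skeletal muscle entries 4 were measured, with sums of 3.46 and 1.81. These were miR-1a-3p at -0.94 ± 0.02, miR-133a-3p at -0.99 ± 0.02, miR-133b-3p at -0.996 ± 0.02 and the dim miR-206-3p at 0.05 ± 0.08. All 4 chondrocyte entries were measured, with sums of 5.70 and 12.9, so markers of the labelled tissue were present: miR-140-5p stood at 1.38 ± 0.01, miR-140-3p at 1.01 ± 0.01, miR-455-3p at 1.71 ± 0.05 and miR-455-5p at -0.03 ± 0.14. Other entries too dim to count on both arrays were miR-486-3p, miR-223-5p, miR-150-3p, miR-208b-3p and miR-499-5p, and in the vessel list miR-31-5p and miR-217-5p. miR-144-5p was bright enough in Col2a1Tsc1KO only, as were miR-132-3p and miR-503-5p of the vessel list. With dim probes at a floor miR-155-5p turns negative, with total gene signals miR-150-5p does, and miR-206-3p and miR-455-5p changed sign in 3 and 9 of 14 alternatives.

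**Figure D5:**
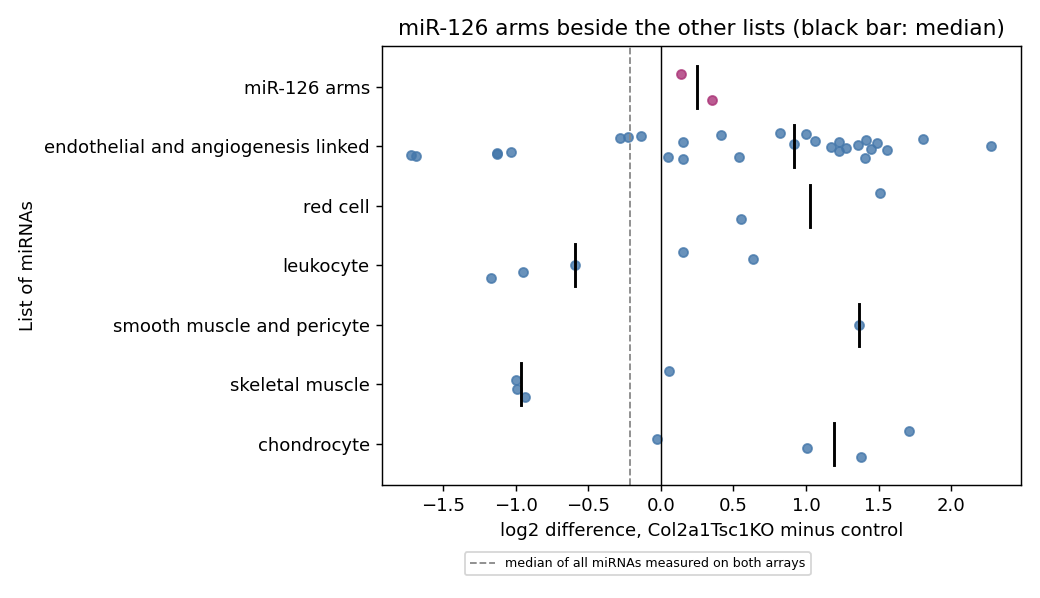
Log2 difference (Col2a1Tsc1KO minus control) of every measured member of each list of miRNAs, with the list's median as a black bar and the median of all 257 miRNAs, -0.22, as a dashed line. The miR-126 arms at 0.14 and 0.35 lie between the median of the skeletal muscle list, -0.97, and that of the chondrocyte list, 1.19.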

How the data were processed

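Total RNA was labelled with Cy3 and hybridised to 1 one-colour Agilent mouse miRNA array per sample. Per the submitters' processing notes and the file headers, Agilent Feature Extraction 10.7 wrote for each spot a background-subtracted intensity with spatial detrending, raw mean and local background intensities and total signals, with no scaling between arrays. The authors also deposited a table of log2 values; the sources used here do not say by which steps. Its column medians, -3.26 and -3.32, are also its floors, and 337 distinct values occur in both columns. Its differences had a Pearson correlation across 257 miRNAs of 0.96 with the main ones and 0.98 with those after quantile normalization, so it has their direction and a log scale. The median of its differences over 304 miRNAs was 0; how the values were centred is unknown.

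Spots marked as outliers were dropped and log2 processed intensities averaged per probe. A probe counted when over 50% of its spots were well above background on both arrays. Levels were divided by the 75th percentile of such probes on that array, and a miRNA's difference, knockout minus control, is the mean over them. A log2 difference of 1 (2-fold) served for counts. limma 3.58.1 in R 4.3.3 did normexp (offset 50), and other steps used Python 3.11.15. The main-setting differences were tested on simulated data, while the alternatives, arm gaps and lists were not. The simulation copied the control array with an equal offset for all spots and shifts larger than those of miR-126. It held no difference between arrays that depends on brightness, so it does not check values as small as those of miR-126. Both arrays lay on 1 slide, so position and group cannot be told apart. Their number limits the precision. No miRNA spot was saturated. Tsc1 mRNA is not measured by a miRNA array, which leaves the genotype labels unchecked.

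Members and lists were chosen with earlier results of these data known. Named were both arms, the 3 nearest differences on each side of each, the extremes of the arm gaps and of the vessel list, and the entries of the marker lists.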

Additional observations from a re-analysis of the deposited data

How the results depend on the processing

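Values run in the order miR-126-3p, miR-126-5p where 2 are given. The log2 differences of 0.35 and 0.14 became 0.72 and 0.50 when all probes set the 75th percentile, 0.76 and 0.55 with no scaling, 0.72 and 0.50 with spike-ins, -0.13 and 0.34 with quantile normalization, 0.85 and 0.87 with total gene signals, and 0.00 and 0.53 in the deposited values. With median scaling they were 0.47 and 0.25, and after normexp with quantile normalization -0.13 and 0.16. miR-126-5p was 0.63 with the total signal of the 21-base probe alone and turned to -0.21 with dim probes at a floor. There its 20-base probe enters at the floor of each array. The floor is the lowest level of a probe well above background, 21.6 for control and 19.5 for Col2a1Tsc1KO before scaling. The floors, not that probe's own signal, thus set its part of the value. The arm gap of 0.22 turned to -0.47 with quantile normalization, -0.29 after normexp, -0.017 with total gene signals and -0.53 in the deposited values, and rose to 0.56 with the floor. The 40 miRNAs at least 2-fold higher became 16 after normexp and 80 with total gene signals, which cover 304 miRNAs in place of 257. The 45 lower became 14 when all probes set the 75th percentile, 13 with no scaling, 14 with spike-ins, 9 after normexp and 24 with total gene signals, again over 304. Constants added to every difference account for the changes when all probes set the 75th percentile, no scaling, spike-ins and the median; for the others the cause was not tested, except the floor. Under the remaining alternatives (background-subtracted signal with more digits, median over spots, outlier spots kept, every spot well above background, brightest probe, single probes) each result moved by less than the spread over spots, or for counts by under 1.5 times. The 20-base probe alone gave no value. Spike-ins and the 21-base total were chosen after the data were seen. Neither leaving out a replicate nor a paired analysis was possible with 1 array per group. For miR-126-5p the signal over background limits precision.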

Other observations

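The software's total signal for miR-126-5p was 21.3 for control and 37.1 for Col2a1Tsc1KO, an unscaled log2 difference of 0.80. The control total held 1 of the 2 probes and the knockout total both. With the 21-base probe alone on both arrays the unscaled log2 difference was 0.56. The totals of miR-126-3p, 1019 and 1753, held both probes on each array and differed by 0.78.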
